A study of Mus musculus with 4 samples.

Results

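Of the 15824 NFIC peaks in the merged list, 462 were nearest to a microRNA gene, which is 2.92% of the list (95% Wilson interval 2.67 to 3.19). They were chosen by the name of the nearest gene in the authors' annotation, whatever the class of genomic element or the distance, and they carry 290 microRNA gene names of 9086 gene names in all. No measured value was used to choose them. The list comes from ChIP-Seq of NFIC, a transcription factor of the nuclear factor I (NFI) family, in pancreas of wild-type mice of 8 to 12 weeks with a strain labelled as mixed. The study's results section states a narrower range of age for this experiment, and its methods state a mainly C57BL/6 background for its crosses. Chromatin was precipitated with an anti-NFIC antibody (Bethyl, A303-123A) in 3 libraries, and 1 library of input DNA is the control. The purpose of the experiment was to map the genes that NFIC occupies in the normal pancreas. The list pools the ChIP libraries and holds 0 columns for a single library, so the values below have no replicate error, the depth is unknown, and no comparison over samples was possible. Whole pancreas was used, so a peak cannot be assigned to acinar, duct, islet or other cells.

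MicroRNAs are short RNAs that are cut from a hairpin in a longer primary transcript and that repress messenger RNAs paired to their seed, bases 2 to 8 of the mature strand. Many hairpins lie inside an intron or exon of a host gene and are transcribed with it, and others have a primary transcript of their own or share one as a cluster. The start that an annotation gives to a microRNA gene is the 5′ end of the hairpin and not the start of the primary transcript, so the distances below are distances to the hairpin. NFI proteins bind as dimers to a mirrored site whose arms are TGGC and GCCA. Acinar cells, which make digestive enzymes, are the most abundant cells of the pancreas.

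The sequences below are stretches of mm10, printed from 5′ to 3′ on the plus strand from the RefSeq copy of the assembly, around a site in the peaks. They show where an NFI full site, written TGGCNNNNNGCCA, stands in a peak nearest to a microRNA gene. The site is in capitals, and all but the last of these peaks match its 8 fixed bases without a mismatch. The whole peak of 173 bp is printed for the islet microRNA gene *Mir375*, for *Mirlet7a-1*, for *Mir148a* and for *Mir29b-1*:
Mir375 (chr1:74899166-74899338): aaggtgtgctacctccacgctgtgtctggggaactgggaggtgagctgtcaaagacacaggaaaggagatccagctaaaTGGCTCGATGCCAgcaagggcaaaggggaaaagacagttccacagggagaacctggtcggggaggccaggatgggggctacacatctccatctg
Mirlet7a-1 (chr13:48566344-48566516): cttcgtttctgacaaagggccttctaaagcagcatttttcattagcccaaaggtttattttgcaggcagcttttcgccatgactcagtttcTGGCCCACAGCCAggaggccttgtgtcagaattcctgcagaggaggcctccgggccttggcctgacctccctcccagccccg
Mir148a (chr6:51119760-51119932): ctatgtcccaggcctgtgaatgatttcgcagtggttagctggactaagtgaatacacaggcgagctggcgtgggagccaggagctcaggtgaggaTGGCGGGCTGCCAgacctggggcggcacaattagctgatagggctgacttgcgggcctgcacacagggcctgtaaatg
Mir29b-1 (chr6:31070579-31070751): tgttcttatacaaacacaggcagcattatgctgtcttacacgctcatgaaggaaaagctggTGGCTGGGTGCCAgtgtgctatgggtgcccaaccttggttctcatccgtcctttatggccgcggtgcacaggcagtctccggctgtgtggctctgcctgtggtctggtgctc
Mir1191b, inside the gene Nfic, with 1 mismatch (chr10:81417027-81417199): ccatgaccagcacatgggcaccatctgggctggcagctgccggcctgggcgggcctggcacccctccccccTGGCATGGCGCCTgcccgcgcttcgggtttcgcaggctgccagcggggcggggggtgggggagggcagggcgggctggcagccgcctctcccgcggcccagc

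For other peaks the site is shown with 15 bases on either side. The site of *Mir5110* lies in a peak -39 bp from the hairpin, *Mir6991* has one of the 10 highest scores, *Mirlet7i* and *Mir7k* make let-7 RNAs, *Mir148b* shares its seed with *Mir148a*, and *Mir378b* has the most peaks of any microRNA gene:
Mir5110 (chr11:85760710-85760752): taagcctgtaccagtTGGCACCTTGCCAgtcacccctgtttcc
Mir6991 (chr19:7423507-7423549): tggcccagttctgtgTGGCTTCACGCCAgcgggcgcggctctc
Mirlet7i (chr10:122884578-122884620): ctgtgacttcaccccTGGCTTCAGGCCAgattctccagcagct
Mir7k (chr5:147293422-147293464): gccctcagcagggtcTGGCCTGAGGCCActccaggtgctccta
Mir148b (chr15:103285906-103285948): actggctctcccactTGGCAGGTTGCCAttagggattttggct
Mir378b (chr11:88329054-88329096): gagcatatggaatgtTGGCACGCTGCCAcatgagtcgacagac

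The microRNAs themselves fall into groups by seed, shown here in capitals from the RefSeq mature sequences of GRCm38.p6. Among the genes with a peak, the largest group shares GAGGUAG, the let-7 seed, and holds 5 genes: *Mirlet7a-1*, *Mirlet7b*, *Mirlet7i*, *Mir7k* and *Mir1961*. These group sizes were not set against the number of annotated genes with each seed, so a preference for a seed was not tested. In the let-7 list used below, which leaves out *Mir7k* and *Mir1961*, 3 of 12 genes had a peak. The interval of that share, 8.89 to 53.2%, includes the 23.0% over all hairpins. The seed CAGUGCA is shared by 3 genes, *Mir148a*, *Mir148b* and *Mir152*. The seed GCAGCAU is shared by *Mir103-2* and *Mir107*:
let-7a-5p: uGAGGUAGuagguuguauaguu
let-7b-5p: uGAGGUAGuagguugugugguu
let-7i-5p: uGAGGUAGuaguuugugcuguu
let-7k: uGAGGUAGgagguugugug
miR-1961: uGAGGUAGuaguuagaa
miR-148a-3p: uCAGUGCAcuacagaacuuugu
miR-148b-3p: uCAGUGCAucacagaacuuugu
miR-152-3p: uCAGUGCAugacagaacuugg
miR-103-3p: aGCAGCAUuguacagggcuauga
miR-107-3p: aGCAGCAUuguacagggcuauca
miR-29b-3p: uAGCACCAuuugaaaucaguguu
miR-26b-5p: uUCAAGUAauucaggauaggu

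The NFI full site was found more often in the peaks nearest to microRNA genes than in the list as a whole. Within 200 bp centred on the peak, and with at most 1 mismatch, 277 of 462 peaks held it, or 60.0% (55.4 to 64.3), against 51.8% of all peaks. Without a mismatch the site was in 77 peaks, 16.7% (13.5 to 20.3), against 13.4% of all peaks, and this interval starts just above the value of the whole list. The intervals here and below are 95% Wilson intervals and cover counting error only. Where a peak held several sites, the distance to its centre was taken from the site with fewest mismatches, and among those from the nearest. This choice favours short distances. Of the 277 peaks that held a site, 131 had it within 25 bp of the centre, 47.3% (41.5 to 53.2). Over all peaks with a site the share was 52.0%, by the same choice.

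Part of this difference went with the class of element. In introns the site was in 58.6% (52.2 to 64.6) of the peaks nearest to microRNA genes and in 56.9% of all intron peaks, and in intergenic regions in 61.1% of 144 peaks (upper bound 68.7%) against 55.4%. Both intervals include the value of the whole list. In the promoter class the shares were 61.3% (43.8 to 76.3, 31 peaks) against 35.9%, but these classes are unlike. Within 1000 bp of the start of a gene other than a hairpin lay 32.3% of the 31 peaks and 99.2% of all promoter peaks. Over 1000 bp from any annotated start, the share with a site was 60.3% (55.5 to 65.0) of 406 peaks, and 56.8% of 11371 peaks of the whole list. This interval, too, includes the value of the matching peaks of the list.

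Peaks with the site had a higher median score. The score is the authors' own, on a scale that is not named in the sources used here, and serves only to rank peaks within the list. The median score of the peaks nearest to microRNA genes was 6.77 and that of all peaks 6.57, and 26.8% (23.0 to 31.1) stood in the upper quartile of score, as did 25.5% of all peaks. The scores ran from 3.39 to 27.3, whereas the highest of the list was 68.1. Peaks with a full site had a median of 7.77, and those without one 5.98, and over all peaks of the list the medians were 7.17 and 5.98. In the upper quartile 103 of 124 peaks held the site, 83.1% (75.5 to 88.6), against 68.0% of all peaks of that quartile. The next quartile gave 58.0% against 51.1%, the third 42.3% against 44.2% and the lowest 51.8% against 43.1%, and each of these 3 intervals includes the value of the whole list. The upper quartile kept its difference over 1000 bp from any start, with 83.8% (75.8 to 89.5) of 111 peaks against 68.7%.

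**Figure D1:**
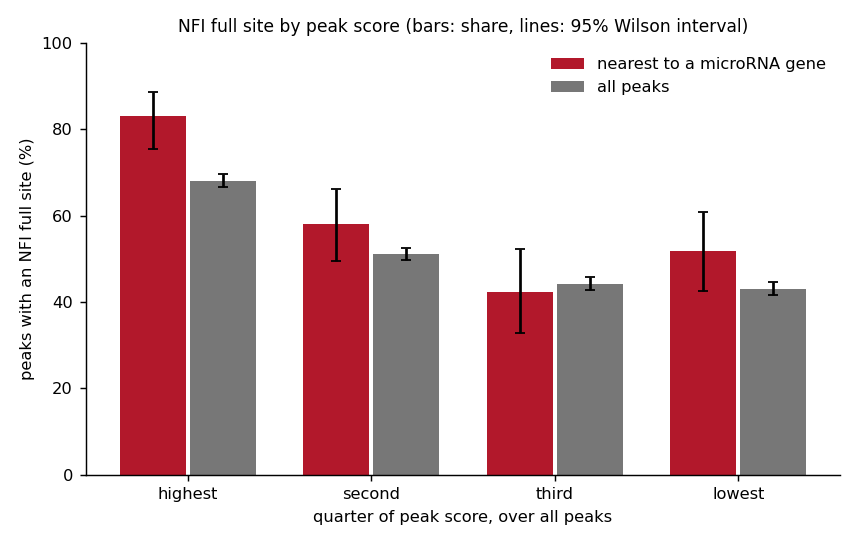
Share of peaks with an NFI full site (at most 1 mismatch, 200 bp window, in percent) by quartile of peak score, for the 462 peaks nearest to a microRNA gene (red) and all 15824 peaks (grey); lines are 95% Wilson intervals. In the highest quartile the red bar stands at 83.1% and the grey one at 68.0%, and in the third the red bar, at 42.3%, is no higher than the grey one at 44.2%.

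Other sequences were searched on both strands in the same windows, as descriptions only. The single NFI arm TTGGCA was in 37.0% (32.7 to 41.5) against 33.7% of all peaks. An E-box of the letters CAGNTG, of the kind read by acinar factors such as PTF1A and MIST1, was in 60.4% (55.9 to 64.7) against 53.9%. The letters GATAAG, read by GATA factors, were in 9.09% against 7.74%, TGTTTAC, read by FOX factors, in 3.25% against 3.99%, and CAAGGTCA, read by NR5A2, in 2.38% against 2.04%. The letters GGGCGG, read by SP and KLF factors and common in CpG-rich promoters, were in 10.8% (8.31 to 14.0) of these peaks and in 21.1% of all peaks. Over 1000 bp from any start these differences were not seen, with an E-box in 60.3% (55.5 to 65.0) against 60.1%, GGGCGG in 7.64% (5.43 to 10.6) against 8.13% and TTGGCA in 36.7% (32.2 to 41.5) against 39.1%.

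Taken over all classes of element, the peaks lay farther from their gene than peaks in general. The median distance was 16596 bp, against 10438 bp over the list, and 122 of 462 peaks, 26.4% (22.6 to 30.6), were within 5000 bp of the annotated start, against 38.9%. Over 1000 bp from any start this difference was not seen, with a median of 20452 bp against 20845 bp. Of the peaks there, 17.7% (14.3 to 21.7) were within 5000 bp, against 15.6%. Of the 462 distances, 216 were upstream of the hairpin and 246 downstream, from -208777 to 781459 bp. Within 100000 bp of the hairpin lay 416 peaks (90.0%), within 10000 bp 171 (37.0%), and within 500 bp 30 (6.49%). Only 9 peaks overlapped the hairpin itself.

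**Figure D2:**
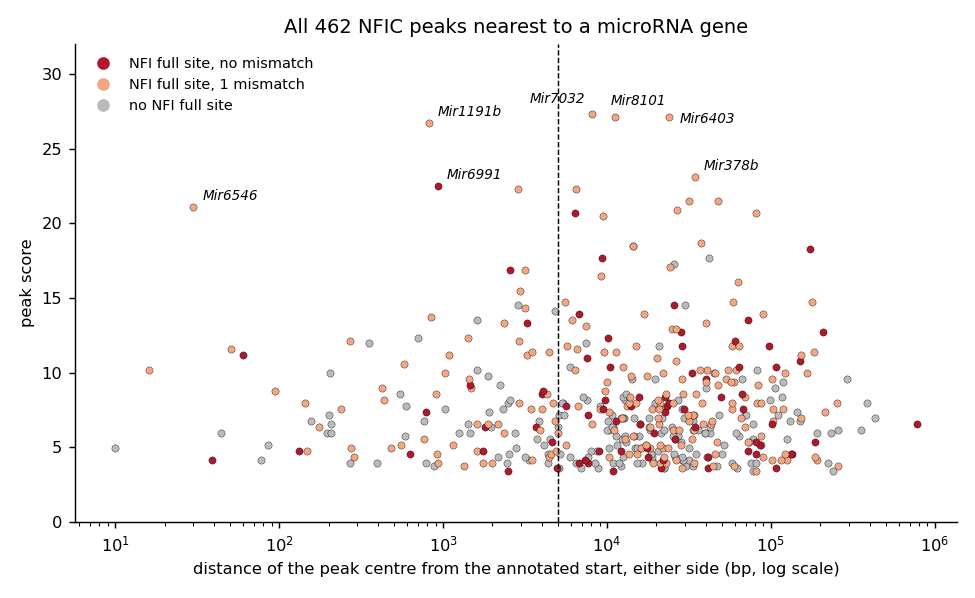
Peak score against distance of the peak centre from the annotated start (bp on either side, log scale) for the 462 peaks nearest to a microRNA gene; each point is a peak, coloured by its NFI full site, and the dashed line marks 5000 bp. High scores occur on both sides of the line, from Mir6546 at 30 bp with a score of 21.1 to Mir378b at 34433 bp with 23.1.

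Introns held a larger share of these peaks than of the list, and promoters a smaller one. In introns were 239 (51.7%, against 40.8% of all peaks), in intergenic regions 144 (31.2% against 30.6%), in the promoter class 31 (6.71% against 20.7%) and at transcript ends 31 (6.71% against 1.83%). Of the 31 peaks at transcript ends, 18 were placed there by the end of the hairpin's own short transcript, as were 27 of the 31 in the promoter class by its start, so that these classes state nearness to a hairpin. Within 1000 bp of the start of a gene other than a hairpin lay 23 peaks, 4.98% (3.34 to 7.36), against 27.9% of all peaks. The rule favours such a low share, and a low share of promoters with it, since a peak beside the start of another gene carries that gene's name. The shares in introns were not compared with promoters left out.

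Hairpins with a peak lay inside a host gene as often as hairpins in general. For 285 of the 290 gene names the start used by the authors was found in the RefSeq copy. Of these genes, 180 (63.2%) lay in a host on the same strand, as did 776 of the 1228 hairpins of the copy (63.2%). Of the 180, 152 were in an intron, and 167 of the hosts were protein-coding. Of the 284 peaks whose hairpin has a host, 199 were inside that host (70.1%, 64.5 to 75.1). At the start of the host itself, within 1000 bp, stood 11 of the peaks. This was measured to a single transcript, the longest that holds the hairpin, with protein-coding ones first. Among the 11 were those of *Mir2139* at *Klhdc7a* (score 10.2), *Mir1938* at *Ifrd1* (9.96), *Mir1932* at *Rnf213* (8.96) and *Mir205* at its host transcript *Mir205hg* (5.98). Starts of other host transcripts were not counted, such as one of *Tlcd1*, 605 bp from the peak of *Mir7653*. *Mir205hg* gives rise to miR-205, an RNA of epithelia.

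Of the 1228 hairpin genes in the RefSeq copy, 282 were the nearest gene of a peak, which is 23.0%. They stood in 282 of 943 separate loci (29.9%) when hairpins within 10000 bp of each other were joined, so no cluster had more than 1 named hairpin. Of the clusters with several hairpins, 27 of 100 had a named one (interval 19.3 to 36.4%). Of the single hairpins, 255 of 843 were named (30.2%), a share inside that interval. The largest cluster, with 72 hairpins on chromosome 2, had no named hairpin. A peak named for *Mir466d*, whose RefSeq hairpin lies in that cluster, was not counted, because the authors' start for this name was not matched. The 39 hairpins of the cluster from *Mir379* on chromosome 12 and the 9 of the *Mir290a* cluster on chromosome 7 also had none. The cluster of 16 from *Mir770* on chromosome 12 had 1. On chromosome X, 2 of 92 hairpins were named (2.17%), and that chromosome held 171 of the 15824 peaks. On chromosome 11 it was 33 of 88 hairpins (37.5%), with 59 peaks. Hairpins numbered 1000 or above, the more recently described ones, made up 67.2% (61.6 to 72.4) of the 287 hairpin names with a peak, and 53.3% of the 1228 hairpins. The 1228 include every hairpin of each cluster, whereas no cluster had more than 1 named hairpin. A share per locus was not computed, so these shares do not show a preference for the more recent hairpins.

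Of the 100 hairpins in 13 lists of known function, 18 were the nearest gene of a peak, beside the 23.0% over all hairpins. They had 28 peaks, with a median score of 6.97, and 17 of the 28 held a full site, 6 of them without a mismatch. Within 5000 bp of the hairpin lay 7 of the 28. Over all 462 peaks, 60.0% held a full site, 16.7% held an exact one and 26.4% lay within 5000 bp. A further 14 listed hairpins had no peak of their own name but had one within 1000 bp of a start of their host. In all, 17 of the 44 listed hairpins with a host had such a peak (38.6%, 25.7 to 53.4), against 188 of 776 (24.2%) over all hairpins with a host. Most of the 17 share a host and thus a peak. The interval takes hairpins as separate and is therefore too narrow, and a share per host was not computed.

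**Figure D3:**
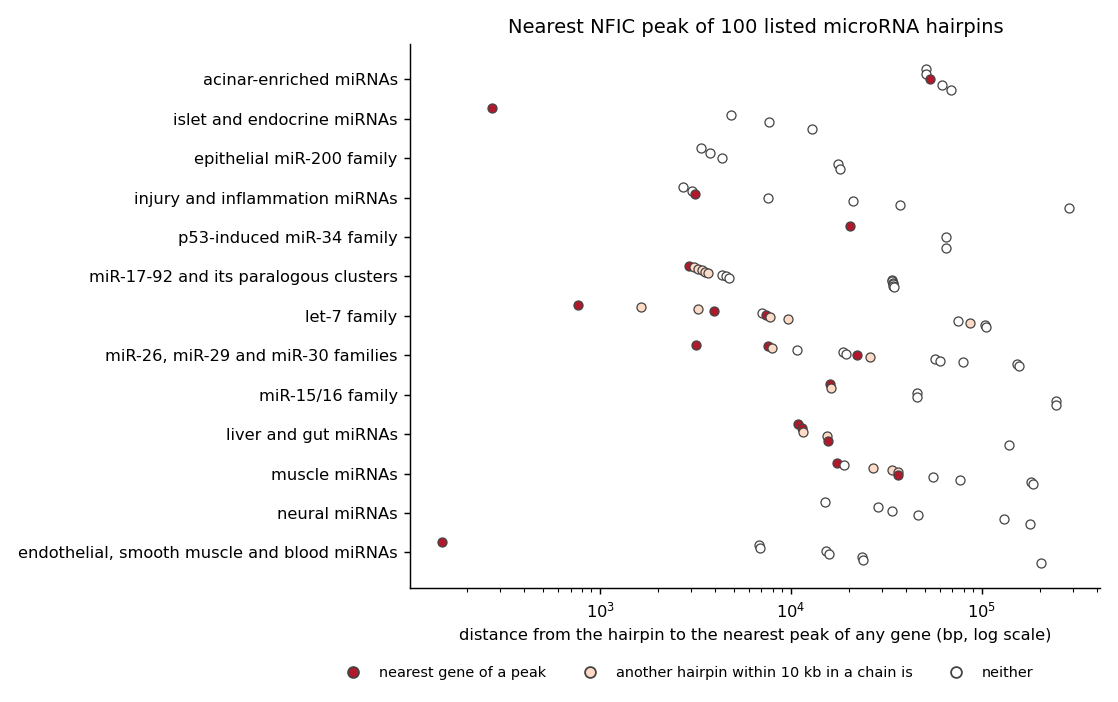
Distance from each of 100 listed microRNA hairpins to the nearest NFIC peak of any gene (bp, log scale), 1 row per list; red points are hairpins that are the nearest gene of a peak, pale points share a cluster with one, and white points are neither. The points nearest to a peak are Mir150 at -148 bp and Mir375 at -270 bp, and those of the acinar list all lie beyond 50000 bp.

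Of the 5 acinar-enriched microRNA genes, 1 was named. *Mir148a*, whose product is abundant in the exocrine pancreas, had 3 peaks, all downstream in intergenic sequence, at 53286 bp with a score of 9.56, at 78106 bp with 6.57 and at 150064 bp with 10.8. The nearest and the farthest held a full site, the farthest the exact one printed above. *Mir216a*, *Mir216b*, *Mir216c* and *Mir217*, which lie together on chromosome 11 and are known for their high level in acinar cells, had no peak within 50000 bp. The nearest peak to them was assigned to *2810471M01Rik*, at -51002 bp from *Mir216b* and -68539 bp from *Mir217*.

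Of the 4 islet microRNA genes, *Mir375* was named. Its product restrains insulin secretion. It had a peak at -270 bp with a score of 12.1 and another at 1469 bp with a score of 9.16, where the exact site is 1 bp from the centre. Both peaks are in the upper quartile of score. *Mir7-1*, *Mir7-2* and *Mir7b*, which make miR-7, had their nearest peaks at 4827, 7658 and 12926 bp, each assigned to another gene.

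In the let-7 list 3 of 12 genes were named. The let-7 RNAs hold back *Lin28* and growth genes. *Mirlet7a-1*, in a cluster with *Mirlet7d* and *Mirlet7f-1*, had 3 peaks upstream, at -7427 bp with a score of 13.1, at -14338 bp with 18.5 and at -28158 bp with 12.7, each with a full site. *Mirlet7i* had a peak without a site at -765 bp (score 6.77), and another with an exact site at 101113 bp (6.57), in an intron of *Ppm1h*. *Mirlet7b* had a peak at 10753 bp with a score of 7.17, and a stronger peak, with a score of 18.7, stood -407 bp from the start of its host *Lncppara*, whose name that peak carries. *Mir7k*, which makes let-7k, had a peak at -77 bp with a score of 4.18 and no site, and 2 farther upstream, the higher at -10132 bp with 12.3 and the exact site printed above.

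In the miR-26, miR-29 and miR-30 families 3 of 13 genes were named. *Mir29b-1*, whose product represses collagens, had 4 peaks upstream, the nearest with the exact site at -7572 bp (score 11.0), the next at -12637 bp with 6.97, and at -37103 and -69873 bp, inside *Lncpint*, with 10.2 and 6.37. *Mir26b*, in an intron of the phosphatase gene *Ctdsp1*, had 1 peak, at 3161 bp, which scored 16.9 and held a site with 1 mismatch. *Mir30d* had 1 at -22186 bp with a score of 6.17 and no site. The hosts of *Mir26a-2* (*Ctdsp2*, score 7.57) and of *Mir29b-2* and *Mir29c* (*A330023F24Rik*, score 8.96) had a peak within 1000 bp of their start.

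**Figure D4:**
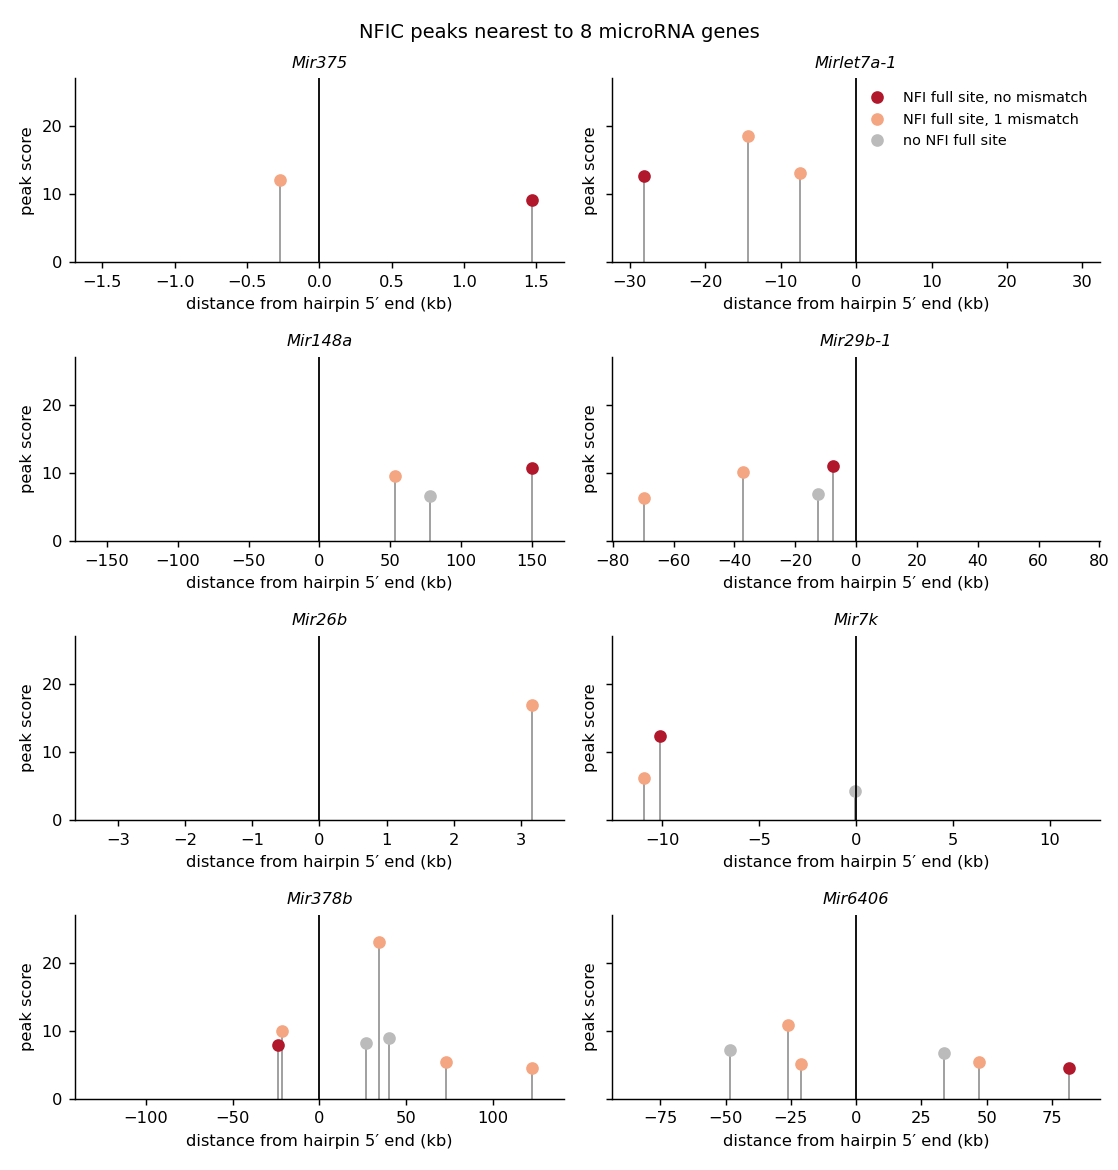
Peak score against distance from the 5′ end of the hairpin (kb, negative upstream) for the peaks nearest to 8 microRNA genes, with the hairpin at 0; each stem is a peak, coloured by its NFI full site. Mir375 has a peak on either side within 1.5 kb, Mirlet7a-1 and Mir29b-1 have all of theirs upstream, Mir148a has all of its own beyond 50 kb downstream, and the 7 peaks of Mir378b reach a score of 23.1.

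Named were 1 of 7 injury and inflammation genes, 1 of 3 of the miR-34 family, 1 of 15 of miR-17-92 and its paralogous clusters, and 1 of 6 of the miR-15/16 family. *Mir21a*, induced in pancreatic injury and inflammation, had a peak at -3149 bp inside its host *Vmp1*, with a score of 4.38 and no site. At the start of *Vmp1* itself, an autophagy gene, stood a peak with a score of 15.3, which is assigned to another gene, *Ptrh2*. *Mir34a*, a p53 target, had a peak at -20366 bp with a score of 6.97 and a site. *Mir17*, the first hairpin of the miR-17-92 cluster, had a peak at -2921 bp with a score of 7.97 and a site. Its relatives *Mir25*, *Mir93* and *Mir106b* lie in *Mcm7*, a subunit of the replicative helicase, and a peak with a score of 10.6 stood at -26 bp from the start of that host. *Mir15a*, whose product represses *Bcl2*, had a peak at -16082 bp with a score of 4.98 and no site, and the start of its host *Dleu2* had one at -82 bp with a score of 13.1.

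In the miR-200 family, which keeps epithelial identity by repressing *Zeb1* and *Zeb2*, 0 of 5 genes were named. A peak with a score of 6.57 lay 296 bp from the start of *Gm13648*, the host of *Mir200a*, *Mir200b* and *Mir429*. The nearest peaks to *Mir200c* and *Mir141* were at 17958 and 17553 bp and were assigned to *Emg1*.

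Among the liver and gut genes 3 of 6 were named, and all 3 had low scores and no site. *Mir194-1* had a peak at -28421 bp with a score of 5.38, *Mir194-2* at -11408 bp with 5.78 and *Mir802* at 11760 bp with 3.98. Of the muscle genes 2 of 10 were named, *Mir133a-2* with an exact site at 17461 bp (score 4.98) and *Mir1a-2* at -100836 bp with 9.56 and at -81162 bp with 3.98. Of the endothelial, smooth muscle and blood genes it was 1 of 8, *Mir150* of lymphocytes, at -148 bp with a score of 4.78, and of the neural genes 0 of 6. Host transcripts of neural microRNAs were named for 2 peaks, *Mir124-2hg* at -172962 bp (score 18.3) and *Mir9-3hg* at 4929 bp (3.59), each with an exact site. With these small numbers the interval of each list includes 23.0%, the share over all hairpins.

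Within 500 bp of a hairpin 30 peaks were found, at 29 genes. In the whole list, a full site was in 39.0% of peaks within 1000 bp of the start of a gene other than a hairpin. Over 1000 bp from any start it was in 56.8%. For 13 of the 30 peaks the start of another gene was within 1000 bp, and 5 of these 13 held a full site. The other 17 had no such start nearby, and 12 of the 17 held a site. Among the latter were *Mir6546* at 30 bp (score 21.1), *Mir375*, *Mir1895* at 51 bp (11.6), *Mir193a* at -94 bp (8.76), *Mir3105* at -144 bp (7.97), *Mir6349* at -237 bp (7.57), *Mir3071* at -481 bp (4.98), *Mir203* at -288 bp (4.38) and *Mir5110* at -39 bp (4.18, exact). miR-203 is known from stratified epithelium. Beside another start, *Mir484* had peaks at 353 and -156 bp, with scores of 12.0 and 6.77 and no site, in the promoter that it shares with *Marf1*. *Mir3960* lay next to *Cdk9* (7.17), *Mir8114* next to *Glul*, which makes glutamine synthetase (6.37), and *Mir3569* next to the methyltransferase gene *Kmt2b* (5.98). *Mir2139*, *Mir1932*, *Mir7653*, *Mir1938*, *Mir5131*, *Mir5130*, *Mir3081* and *Mir152* were those inside a host whose start was near, with scores from 4.98 to 10.2. The peaks of *Mir1949*, *Mir6715*, *Mir3965*, *Mir7211*, *Mir6950*, *Mir150* and *Mir7k*, scored from 3.98 to 5.98.

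All of the 10 peaks with the highest score held a full site, 1 of them without a mismatch. In the upper quartile of score, 83.1% of the peaks nearest to microRNA genes and 68.0% of all peaks held a site. The share among the highest peaks of the whole list was not computed. Only 2 of the 10 were within 1000 bp of the hairpin, and for 8 the hairpin lay in a host gene. The highest, of *Mir7032*, had a score of 27.3 and lay at 8110 bp, in the 3′ UTR of *Vps37b*, an endosomal sorting gene, and outside the host *Hip1r*. *Mir8101* and *Mir6403* each had one of 27.1, in introns of *Hdac5*, a histone deacetylase, and *Man1c1*, a Golgi mannosidase. *Mir1191b* had 1 peak at -816 bp with a score of 26.7, inside *Nfic*, so that this peak of a microRNA name lies in the gene of the precipitated factor. The peaks named for *Nfic* itself had scores of 8.56 at 2203 bp and 30.5 at -8482 bp. Those that followed were *Mir378b* in an intron of *Msi2* (23.1), *Mir6991* (22.5), *Mir6995* in *Sh3pxd2a* (22.3), *Mir7004* in *Atp9a* (22.3), *Mir3092* in *Fndc3b* (21.5) and *Mir138-1* in intergenic sequence (21.5).

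Most genes had a single peak. There were 190 genes with 1 peak (65.5%), 56 with 2, 26 with 3 and 18 with 4 or more. Of the 100 genes with several peaks, 37 had them on both sides of the hairpin, and a full site was present in all peaks of 29 genes, in none of 14 and in some of 57. *Mir378b* had the most, 7, of which 5 lie in *Msi2*, a gene of an RNA-binding protein, and the other pair upstream of the hairpin with scores of 7.97 and 9.96. *Mir6406* had 6, 3 of them in *Stx8* and 3 in *Ntn1*, with scores from 4.58 to 10.8. Genes with 5 peaks were *Mir3104*, whose peaks reached into *Brsk2* and *Mob2*, *Mir3105*, *Mir5098*, *Mir6951* and *Mir7041*, whose host is *Lrig1*. The 5 peaks of *Mir5098* were on 2 chromosomes, and its start was not matched in the RefSeq copy, so that the number is uncertain.

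The relatives by seed of the genes described above, chosen after their values were seen, did not share a distance. *Mir148b*, in the coatomer gene *Copz1*, had 1 peak at 788 bp that scored 7.37 and held an exact site. *Mir152*, in the related gene *Copz2*, had peaks at 276 and 10335 bp with scores of 4.98 and 7.37, each with a site. *Mir107* had a peak at -24755 bp, inside its host *Pank1*, with a score of 6.37, and *Mir103-2*, whose host is *Pank2*, had one at 21470 bp, inside *Rnf24*, with 3.59 and an exact site. *Mir1961*, in the let-7 group, had 1 at 42604 bp, inside *Shroom3*, with a score of 6.37 and no site.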

How the data were processed

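NFIC ChIP-Seq of mouse pancreas was analysed from 1 merged peak list on mm10. The submitters' processing notes name BWA, Picard and MACS2 without versions, and the study's methods name HOMER for merging and annotation in a paragraph on downloaded data; thresholds are not given in the sources used here. The peak score is the authors' deposited score, on an unnamed scale, and the focus ratio is a deposited fraction that was only checked (median 0.683 here, 0.684 in the list). Distances are the authors', negative upstream.

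Names were matched case-sensitively, and 6 of the 462 peaks carry 3 names of host genes such as *Mir99ahg*. Sequence, hosts and starts came from the RefSeq copy of GRCm38.p6, whose release may differ from that of the authors: 452 starts were equal within 1 bp and 10 were not. The site search allowed 1 mismatch in 8 fixed bases, and found 100% of sites planted in 500 simulated windows. The 13 lists came from general knowledge. Hairpins count once however many peaks they have.

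Members and lists were chosen with earlier results of these data known. Named are listed genes with a peak, genes of the 10 highest scores, the 5 genes with most peaks with ties kept, genes with a peak within 500 bp, and their hosts, except 1 item that is not reported here. Sequences were printed for some of these with an exact site, and that of *Mir1191b* was added after its values were seen, as was that of *Mir148b*. The alternatives varied score, annotation, merging, distance, mismatches and window. Python 3.11, numpy 2.4.6, pandas 2.3.3, statsmodels 0.14.6 and matplotlib 3.10.9 were used.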

Additional observations from a re-analysis of the deposited data

How the results depend on the processing

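Of 42 alternatives over 6 results, 23 kept a share or median within its interval, or interquartile range for the score, or a count within 1.5 times. The 462 peaks and 290 genes fell to 255 and 180 in the upper 2 quartiles of score, 124 and 102 in the upper quartile, and 171 and 147 within 10000 bp. The share with an NFI full site moved from 60.0% to 70.2% and 83.1% in those quartiles (all peaks 59.5% and 68.0%), to 16.7% without a mismatch (13.4%), 37.0% with a single arm (33.7%), 44.2% in 100 bp (39.4%) and 64.9% in 400 bp (58.3%). The median score was 11.8 in the upper quartile (12.0). The share within 5000 bp was 71.3% of peaks within 10000 bp (79.1%), and 10.4% lay within 1000 bp. The share near the start of another gene moved from 4.98% to 3.23% in the upper quartile (25.4%), 2.83% with the RefSeq nearest start, 9.94% within 10000 bp (55.9%) and 9.96% within 5000 bp of a start. Leaving out host gene names or merging peaks over gaps of 500 bp moved none of the 6 results. No paired analysis was possible because the list has no column for a single library, and for the same reason no library could be left out. The depth is unknown, so a hairpin without a peak is not shown to be unbound.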
